A study of Mus musculus with 4 samples.

Results

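The stefin A family of the mouse is a group of small intracellular inhibitors of cysteine proteases, encoded side by side on chromosome 16. Members were the probes on the array whose gene name begins with Stfa, Csta or Cstdc or whose description names stefin A. By the names in the scanner files, that rule found 7 probes of 6 genes: Stfa1, Stfa2, Stfa3, Stfa2l1, Csta1 and, with 2 probes, Cstad. Cstad lies on chromosome 2 and encodes a cyclosporin-conditional T cell activation protein that shares only the first letters of its symbol. Updating old names by accession brought in Cstdc4, Csta3, Csta2, Cstdc5 and Cstdc6 on chromosome 16, listed in the files under clone or predicted gene names, and Cstdc1 and Cstdc2 on chromosome 2. The results concern the 10 genes of chromosome 16, each with 1 probe, out of 26032 named genes and 56605 probes. The 3 genes of chromosome 2, with 5 probes, were set aside. The family was picked for its values on these same arrays, so its levels and differences are a description.

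Whole lung of C57BL/6J mice was sampled at 3 weeks, and 4 Agilent 1-colour arrays each took the pooled RNA of 5 animals. The groups were ORX with inhaled PPE (ORX/PPE), ORX with inhaled PBS (ORX/PBS), sham surgery with inhaled PPE (sham/PPE) and sham surgery with inhaled PBS (sham/PBS), 1 array each. The labels do not spell out either abbreviation: from a title that speaks of testosterone deficiency and elastase, ORX was taken to mean orchiectomy (removal of the testes) and PPE the pancreatic elastase of pig. PBS is the saline vehicle, and the age of the mice is not given in the sources used here. With 1 pool per group there is no replicate and no test, and every difference below is a difference between 2 pools.

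Stefins belong to the type 1 cystatins, which lack a secretion signal and block papain-like cathepsins such as B, H, L and S by filling their active site cleft. Where humans have the gene CSTA, mice carry a series of tandem copies. In the mouse these transcripts are known from neutrophils and their bone marrow precursors, and stefin A is also known from stratified epithelium. In a lung injured by elastase they can stand both for inhibitors of cysteine proteases and for transcripts carried by leukocytes.

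Close copies can share signal, so the probes are shown first where they overlap. Each probe has 60 bases. Among the 45 pairs of family probes, 2 pairs share a run of at least 16 bases, and the longest run in the other pairs is 14 bases. Probes were compared only with other probes and were not aligned to transcripts. A short run between probes therefore does not show that a probe is free of a paralog's signal. The stretches of 30 bases below show these pairs, with the shared run in capitals, 25 bases for Csta2 and Cstdc5 and 22 bases for Stfa3 and Cstdc4.
Csta2: CTTCTAAGCAGCAAATTCTAAAGTGtcctg
Cstdc5: taCTTCTAAGCAGCAAATTCTAAAGTGacc
Stfa3: taagGGTTACCAGACTAACAAAACCAagac
Cstdc4: ttcatGGTTACCAGACTAACAAAACCAgga
The probe named Stfa2l1 is listed in the scanner file against transcripts of both Stfa2l1 and Stfa2, so its signal cannot be assigned to either gene alone. The longest run it shares with the Stfa2 probe is only 5 bases. The other 9 family probes are each listed for 1 gene of the reference table. The probes of Cstdc5 and Cstdc6 are both listed against a further transcript that was not matched to that table. The Cstdc5 signal may thus not be of that gene alone. The Stfa2l1 probe also shares a run of 26 bases with a probe described as predicted gene 10092, which lies within the same stretch of chromosome 16.
Stfa2l1: aAATTACTTCATTAAGATGGATGTAGGacg
predicted gene 10092: cAATTACTTCATTAAGATGGATGTAGGtag

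The promoters are shown because most of the members differed between arrays in the same way. RefSeq windows of build GRCm38.p6, from 250 bases before to 50 after each gene's start, were at hand for 9 of the 10 members. The longest runs of letters common to the 7 members that stood at least 2-fold higher under PPE in sham mice were ACCTTTAAAACCC and GATCATTTCTTCT, of 13 letters each. They were found after the values were known, and their presence in all 7 is set by the search itself. Whether the boxes have a part in the differences was not tested. In the lines below, 60 bases of each promoter are given 5′ to 3′ on the gene's own strand, with these boxes in capitals. The line of Cstdc5 ends within its second box, which is left in lower case.
Stfa2l1, chr16:36156765-36156824, plus strand: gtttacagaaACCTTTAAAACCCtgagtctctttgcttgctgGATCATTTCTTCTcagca
Cstdc4, chr16:36184170-36184229, plus strand: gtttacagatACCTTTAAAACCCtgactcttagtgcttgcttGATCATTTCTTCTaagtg
Csta3, chr16:36210313-36210372, plus strand: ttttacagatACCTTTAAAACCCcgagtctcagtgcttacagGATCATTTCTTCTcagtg
Stfa1, chr16:36277105-36277164, plus strand: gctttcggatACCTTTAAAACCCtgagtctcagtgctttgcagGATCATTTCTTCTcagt
Cstdc5, chr16:36367541-36367600, minus strand: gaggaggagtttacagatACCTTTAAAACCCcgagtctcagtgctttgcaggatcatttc
Stfa2, chr16:36408346-36408405, minus strand: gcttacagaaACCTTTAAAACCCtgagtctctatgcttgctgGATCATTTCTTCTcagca
Stfa3, chr16:36455377-36455436, minus strand: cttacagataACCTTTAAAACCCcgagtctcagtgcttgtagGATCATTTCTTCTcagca
The windows of Csta1, whose probe was not above background, and Csta2, which stayed under 2-fold, hold neither box, and their bases around the start are given for comparison.
Csta1, chr16:36131170-36131229, minus strand: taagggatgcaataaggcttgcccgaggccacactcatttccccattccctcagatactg
Csta2, chr16:36221522-36221581, plus strand: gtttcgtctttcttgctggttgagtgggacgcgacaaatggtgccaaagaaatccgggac
On either strand, ACCTTTAAAACCC was present in 9 of 32851 promoter windows (0.0274%), all 9 on chromosome 16: those of the 7 members, of Cstdc3 and of the predicted gene Gm7260. GATCATTTCTTCT was present in 10 windows (0.0304%), the same 9 genes and 1700010I02Rik. No probe was found for Cstdc3, so it has no value to set beside its boxes. The first box begins between 12 and 80 bases before the annotated start, and the second begins 32 or 33 bases after the first. The shorter TTTAAAA inside the first box was present in 8.74% of windows, and TATAAA, the usual letters of a TATA box, in 13.6% of windows and in none of the family's. The 21 pairs of promoter windows among the 7 members differ by 29 to 154 single-base edits with a median of 86, the closest being Stfa2 and Stfa2l1, and the 15 pairs that include Csta1 or Csta2 differ by 158 to 173.

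The sham/PPE array stood apart from the others in ways that have to be set before the results. It held transcripts of other organs: 7 of the 7 measured genes of a spermatid list stood at least 2-fold higher than on sham/PBS, and the summed level of 8 spermatid probes was 402.6 on sham/PPE, against 20.1 on ORX/PPE, 18.5 on ORX/PBS and 21.2 on sham/PBS. A list of 12 heart genes summed to 4450 on ORX/PPE, 9065 on ORX/PBS, 23278 on sham/PPE and 11001 on sham/PBS. Levels throughout are percent of the array's own 75th percentile of processed signal. The 12 genes of a lung list, such as those of surfactant and alveolar cells, were above background on every array, with medians between -0.11 and 0.07 on the log2 scale in the 4 comparisons. Results that rest on sham/PPE are therefore given beside the comparison of ORX arrays, which does not use it. The ORX arrays also differed from each other in such lists. For PPE in ORX mice the heart list had a median of -0.98, with 4 of 12 genes at least 2-fold lower. Lists of liver and fat genes had medians of -0.92 (over 6 genes) and -0.38 (over 8), and the spermatid list -0.01 (over 3). On each array 19490 to 20208 genes were well above background, and 0 spots were saturated.

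Of the 10 members, 7 were well above background on all 4 arrays. Stfa3 was so on 3, and Csta1 and Cstdc6 on none. Each value below stands for 1 spot, with a scanner error of 10.01% to 21.0% over the 31 member values above background, which covers the spot and not the mice. Levels of different probes are not compared with each other.

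Stfa2l1, with the caution on its probe, was at 48.0% of the 75th percentile on ORX/PPE, 47.3% on ORX/PBS, 90.2% on sham/PPE and 21.2% on sham/PBS. Stfa2, a close paralog of it, was at 54.6% on ORX/PPE, 46.1% on ORX/PBS, 90.6% on sham/PPE and 23.8% on sham/PBS. Stfa1 was at 12.3% on ORX/PPE, 11.2% on ORX/PBS, 18.8% on sham/PPE and 5.75% on sham/PBS. In all of these, sham/PPE was the highest array and sham/PBS the lowest, and the ORX arrays lay close together between them.

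Among the cystatin domain genes and the remaining stefins, Cstdc4 was at 54.6% on ORX/PPE, 43.1% on ORX/PBS, 89.5% on sham/PPE and 21.5% on sham/PBS. Cstdc5 was at 48.3% on ORX/PPE, 50.2% on ORX/PBS, 90.9% on sham/PPE and 32.5% on sham/PBS. Csta3 was a dim probe, at 3.52% on ORX/PPE, 2.78% on ORX/PBS, 5.72% on sham/PPE and 1.95% on sham/PBS. The order of the arrays was the same at both ends in these genes as well. Stfa3 was dim too, at 2.03% on ORX/PPE, 2.12% on ORX/PBS and 4.05% on sham/PPE, and was not well above background on sham/PBS, where it measured 0.994%.

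Csta2 was the member with the flattest profile, at 48.5% on ORX/PPE, 55.4% on ORX/PBS, 59.8% on sham/PPE and 43.1% on sham/PBS. Csta1 and Cstdc6 were not well above background on any array and have no difference to give. All 8 members with a value on some array were highest on sham/PPE and lowest on sham/PBS, an order held by 11.2% of the 18733 genes above background on every array.

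**Figure D1:**
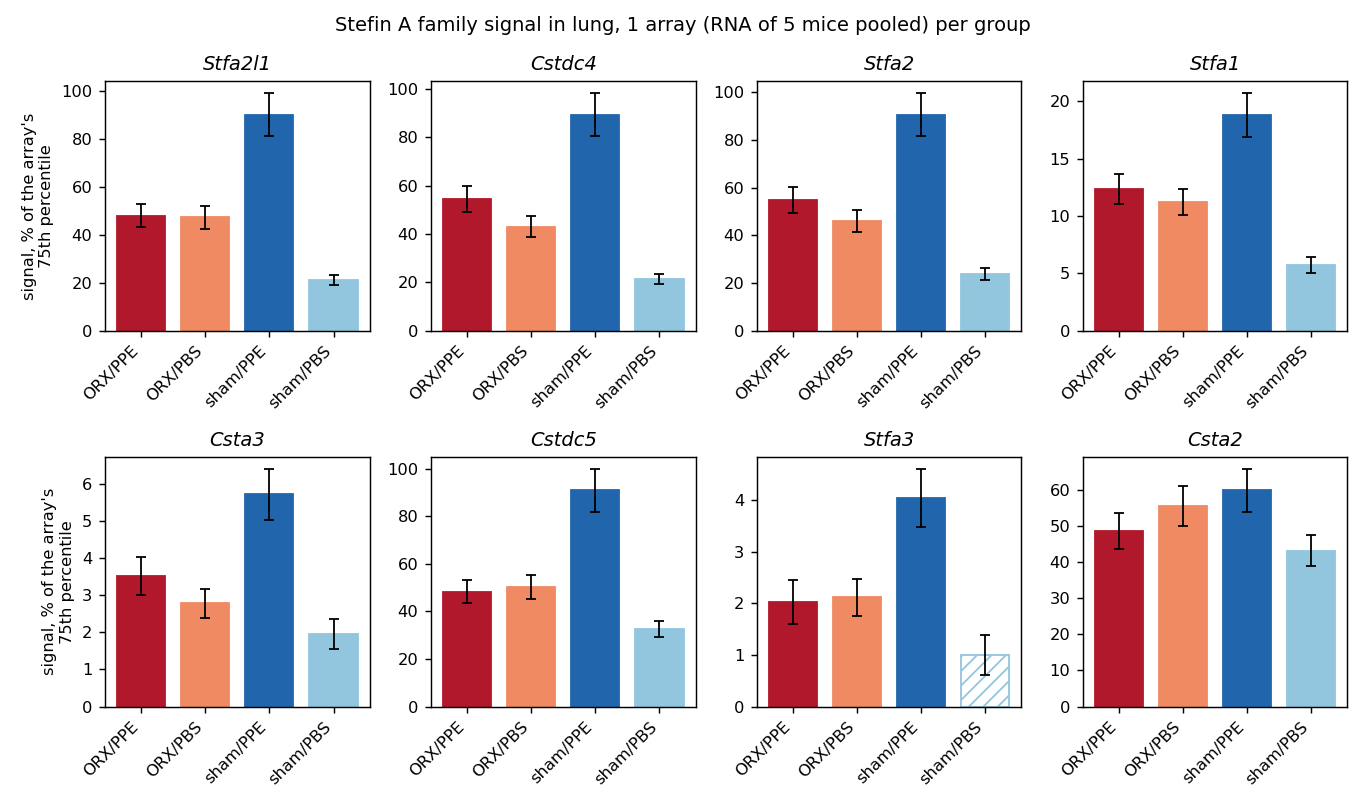
Processed signal of the 8 stefin A family genes above background on some array, as percent of the array's 75th percentile (y axis, from 0, on its own scale in each panel), by group (x axis, 1 array each). Error bars are the scanner's error of the spot and the hatched bar was not well above background; the sham/PPE bar is the tallest and the sham/PBS bar the shortest in every panel.

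The first question was whether inhaled elastase went with a different stefin level in either surgery. In sham mice 7 of the 8 measured members stood at least 2-fold higher on the PPE array and 0 lower, where the shares among 20158 genes were 1.32% higher and 0.357% lower. Since the family was chosen with this comparison in view, nothing is read from that gap. Stfa2l1 was 4.26-fold higher, a log2 difference of 2.09 with a scanner error of 0.21, and Cstdc4 4.16-fold higher, at 2.06. Stfa2 followed at 3.80-fold (1.93), Stfa1 at 3.27-fold (1.71), Csta3 at 2.94-fold (1.55, scanner error 0.34) and Cstdc5 at 2.80-fold (1.48). Stfa3 was at least 2.42-fold higher, a bound set by the lowest signal above background. Csta2 was 1.39-fold higher, at 0.47. With normexp background correction, which compresses dim signals, the count was 4 of 8 members, namely Stfa2l1, Cstdc4, Stfa2 and Cstdc5. The share of all measured genes higher under that setting was 0.317%.

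Over the 7 members measured on both arrays the median difference was 1.71, beside 0.04 over all genes. Among 19035 genes measured on both arrays, Stfa2l1 ranked 18 from the top, Cstdc4 19, Stfa2 23, Stfa1 37, Csta3 48 and Cstdc5 55, while Csta2 ranked 1223.

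In ORX mice the same members lay near zero. Here 0 of 8 members were 2-fold higher and 0 lower, where 0.665% of 20446 genes were higher and 0.377% lower. The median was 0.08, beside -0.01 over all genes. Csta3 and Cstdc4 were each at 0.34, Stfa2 at 0.25, Stfa1 at 0.14 and Stfa2l1 at 0.02, and Cstdc5 and Stfa3 were each at -0.06 and Csta2 at -0.19. Only the differences of Cstdc4, Csta3 and Stfa2 were larger than their own scanner error, which was 0.20 for Cstdc4 and Stfa2 and 0.29 for Csta3. The PPE comparisons share no array. The PPE difference in ORX minus that in sham ran from -2.07 for Stfa2l1 to -0.66 for Csta2 among the 7 members above background on every array, and with 1 array per group that difference was not tested.

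The other question was whether loss of the testes went with a different stefin level. Without elastase, 2 of 8 members, Stfa2l1 at 1.16 and Cstdc4 at 1.004, stood at least 2-fold higher in ORX and 0 lower, where 0.605% of 20479 genes were higher and 1.15% lower. Stfa1 at 0.97 and Stfa2 at 0.95 lay just under the threshold, and with normexp 0 members passed it, where 0.146% of genes were higher. Cstdc5 was at 0.63, Csta3 at 0.51 (-0.02 with normexp) and Csta2 at 0.36, and Stfa3 had only a bound of 0.34 (0 with normexp). The median of the 7 members measured on both arrays was 0.95, beside 0.01 over all genes.

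Under elastase the sign was turned. All 8 members stood lower in ORX and 0 reached 2-fold in either direction, where 0.284% of 20093 genes were 2-fold higher and 1.46% lower. Stfa3 at -0.99 was just short of the threshold, Cstdc5 and Stfa2l1 were each at -0.91, Stfa2 at -0.73, Cstdc4 at -0.71, Csta3 at -0.70, Stfa1 at -0.61 and Csta2 at -0.30. The median was -0.72, beside -0.03 over all genes. The comparisons of ORX share no array with each other, but each shares an array with each comparison of PPE, so the 4 sets of differences are not independent.

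The raised value on sham/PPE was not the only difference from sham/PBS. With sham/PPE left aside, the mean of the ORX arrays exceeded sham/PBS by 1.17 for Stfa2l1, 1.17 for Cstdc4, 1.07 for Stfa2, 1.03 for Stfa1, 0.68 for Csta3, 0.60 for Cstdc5 and 0.27 for Csta2. That mean includes ORX/PPE, so it mixes surgery and elastase. With normexp, the difference of ORX/PBS alone from sham/PBS was 0.85 for Stfa2l1, 0.68 for Cstdc4, 0.71 for Stfa2 and 0.39 for Stfa1. It was -0.02 for Csta3, 0.50 for Cstdc5 and 0.34 for Csta2. Between ORX/PBS and sham/PBS the other-organ lists had medians of -0.04 (spermatid), -0.23 (heart), 0.15 (fat) and 0.57 (liver, over 7 genes). These medians leave out ORX/PPE, which was lower than ORX/PBS in the heart, fat and liver medians given earlier. The part of the other-organ transcripts on sham/PPE in the stefin differences that use that array was not tested.

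**Figure D2:**
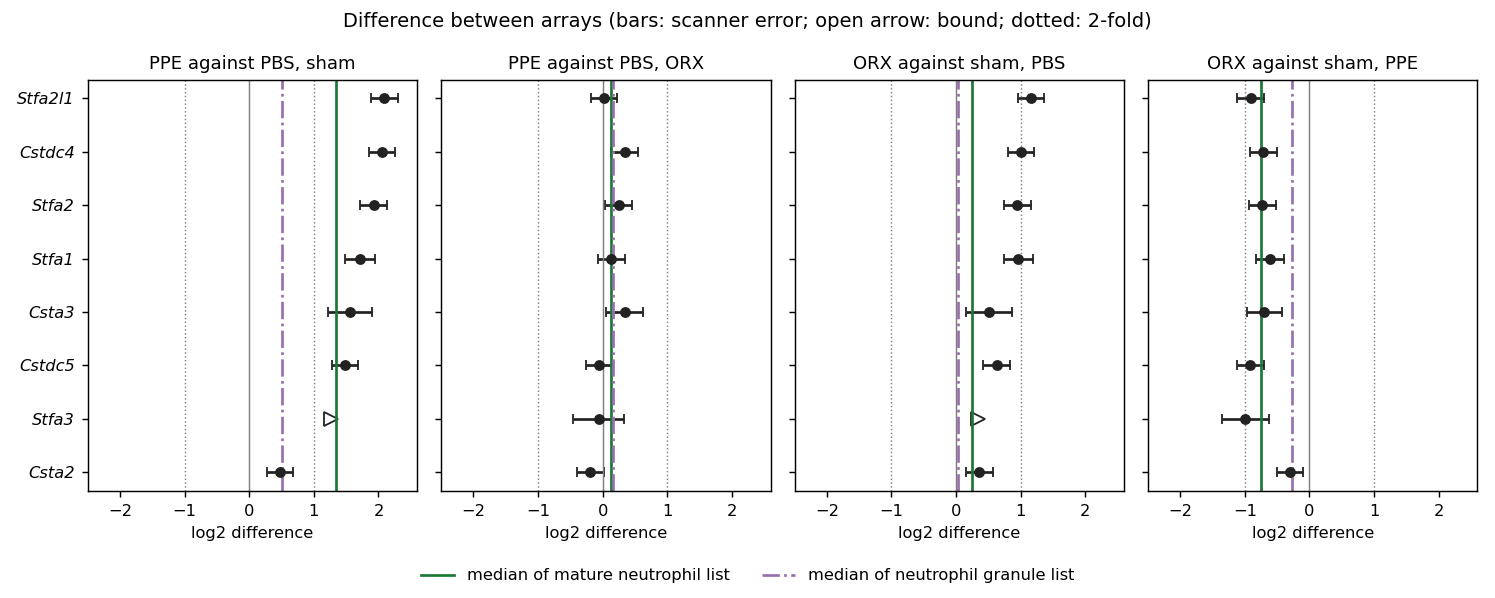
Log2 difference between arrays (x axis) for 8 family members (y axis) in the 4 comparisons, with scanner error as bars, bounds as open arrows and dotted lines at 2-fold. The members lie right of the 2-fold line under PPE in sham mice except Csta2, near zero under PPE in ORX mice, at 0.36 to 1.16 for ORX under PBS where measured on both arrays, and at -0.30 to -0.99 for ORX under PPE; vertical lines mark the medians of the mature neutrophil list and the neutrophil granule list.

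Genes of mature neutrophils differed in the same direction as the stefins in the median of each comparison, but not by the same amount. Of a list of 21 such genes, all above background on every array, 15 passed 2-fold upward and 0 downward with PPE in sham mice, with a median of 1.34. The same list had 2 higher and a median of 0.13 under PPE in ORX mice, 1 higher and a median of 0.25 for ORX under PBS, where the stefin median was 0.95, and 0 higher, 5 lower and a median of -0.75 for ORX under PPE. Its summed level was 18573 on ORX/PPE, 15523 on ORX/PBS, 26166 on sham/PPE and 12420 on sham/PBS. S100a8 and S100a9 carry most of the sham/PPE sum. Without them, a choice made after seeing the data, the other 19 genes summed to 9480 on ORX/PPE, 8487 on ORX/PBS, 9538 on sham/PPE and 8474 on sham/PBS. Most of that sum was Csf3r, at 7288 on ORX/PPE, 6683 on ORX/PBS, 6623 on sham/PPE and 7038 on sham/PBS. The closeness of these sums thus says little about the other genes of the list.

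Within that list, S100a8, a subunit of the calprotectin stored in neutrophil cytoplasm, was at 2.38 for PPE in sham mice and 0.30 in ORX mice. Retnlg, a secreted protein of neutrophils, was at 2.20 in sham and 0.83 in ORX mice. The chemokine receptor Cxcr1 was at 1.64 in sham and at 1.53 in ORX mice, where 0 of 8 stefins passed 2-fold. Il1r2, the other gene of the list past 2-fold in ORX mice, was at 1.17 there and at 1.69 in sham mice. Csf3r, the receptor for the growth factor of neutrophils, was at -0.09 in sham mice and the surface marker Ly6g at 0.25, so the list was not uniform. For ORX under PBS, 15 of the list's 21 genes lay above 0. S100a8 was at 1.14, Retnlg at 0.81 and S100a9 at 0.76 there, inside the stefin range of 0.36 to 1.16. Cxcr1 was at -0.26 in the same comparison.

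The granule list holds mostly proteins that neutrophils make while they mature in the marrow. With PPE in sham mice 2 of its 14 measured genes passed 2-fold upward and 0 downward, with a median of 0.51 over the 12 on both arrays. Those were the collagenase Mmp8 at 2.30 and the siderophore-binding Lcn2 at 1.28, while the azurophil granule genes Elane and Mpo stood at 0.04 and 0.08. Its medians were 0.16 for PPE in ORX mice, 0.03 for ORX under PBS and -0.27 for ORX under PPE. Its summed level was 26193 on ORX/PPE, 24451 on ORX/PBS, 32027 on sham/PPE and 29176 on sham/PBS. Most of that sum was Hp, at 15192 on ORX/PPE, 15440 on ORX/PBS, 18595 on sham/PPE and 20935 on sham/PBS. Of the list's 16 genes, Fcnb was not well above background on any array, Ctsg was so on 1 and Prtn3 on 2.

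In lung tissue, fewer or more cells of a type and less or more RNA per cell cannot be told apart. The part of neutrophil number in the stefin differences was not tested. Of a list of 12 monocyte genes, 0 were 2-fold apart under PPE in sham mice, with a median of 0.21. Alveolar macrophage genes had 5 of 16 higher there with a median of 0.78, and 5 of 16 with a median of 0.34 in ORX mice. Squamous epithelial genes, listed because stefin A is also an epidermal inhibitor, had 1 of 19 measured genes higher under PPE in sham mice, the basal keratin Krt14 at 1.14, and a median of 0.13. Sprr1b, Sprr3 and Dsg3 of that list were not well above background on any array.

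Genes whose 4 values were most like each stefin were found by the root mean square distance between log2 profiles, each centred on its own mean, over the 4 arrays and 15854 candidate genes. The calprotectin genes and Mmp8 led for the members that differed most. S100a9 was nearest to Stfa2 at a distance of 0.10 and to Cstdc4 at 0.10, and S100a8 was nearest to Stfa2l1 at 0.14. For Cstdc5 the nearest were the myeloid receptor Trem3 at 0.06, Ccdc188 at 0.09 and the gelatinase Mmp9 at 0.10. Fgg, a fibrinogen chain, was nearest to Stfa1 at 0.12, and Tmigd3 to Csta3 at 0.12. Csta2 was nearest to Sdr9c7 at 0.01, on a profile with little range. Between members, Cstdc4 and Stfa2 were 0.06 apart, Stfa1 and Stfa2 0.09, and Stfa2l1 and Stfa2 0.10. With 4 points from 4 arrays, these distances only describe the arrays.

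Position within the cluster was set beside the values. On build mm9 the family's probes lie between chr16:36120084-36120143, that of Csta1, and chr16:36450693-36450752, that of Stfa3. Csta2, whose probe lies at chr16:36257452-36257511, stands between Csta3 and Stfa1, so a member under 2-fold lies among members above it. The 5 nearest named genes on each side, from Parp9 to Ccdc58 and from Casr to Eaf2, had 0 of 10 past 2-fold in any of the 4 comparisons. Under PPE in sham mice they ranged from -0.18 for the importin Kpna1 to a bound of 0.70 for the calcium-sensing receptor Casr. The costimulatory ligand Cd86, carried by antigen-presenting cells and lying 2 genes beyond Stfa3, was at 0.20 there. The probe of predicted gene 10092, inside the cluster and no member by name, was at 26.1% on ORX/PPE, 26.8% on ORX/PBS, 46.4% on sham/PPE and 13.3% on sham/PBS. Its differences were 1.80 for PPE in sham mice and -0.04 in ORX mice, and it shares bases with the probe of Stfa2l1. The 4 other non-member probes inside the cluster did not show this: NAP093863-001, above background on every array, was at -0.30 in sham and 0.16 in ORX mice, Gm6815 was above background only on the PBS arrays, and Gm4758 and BY136662 on none.

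**Figure D3:**
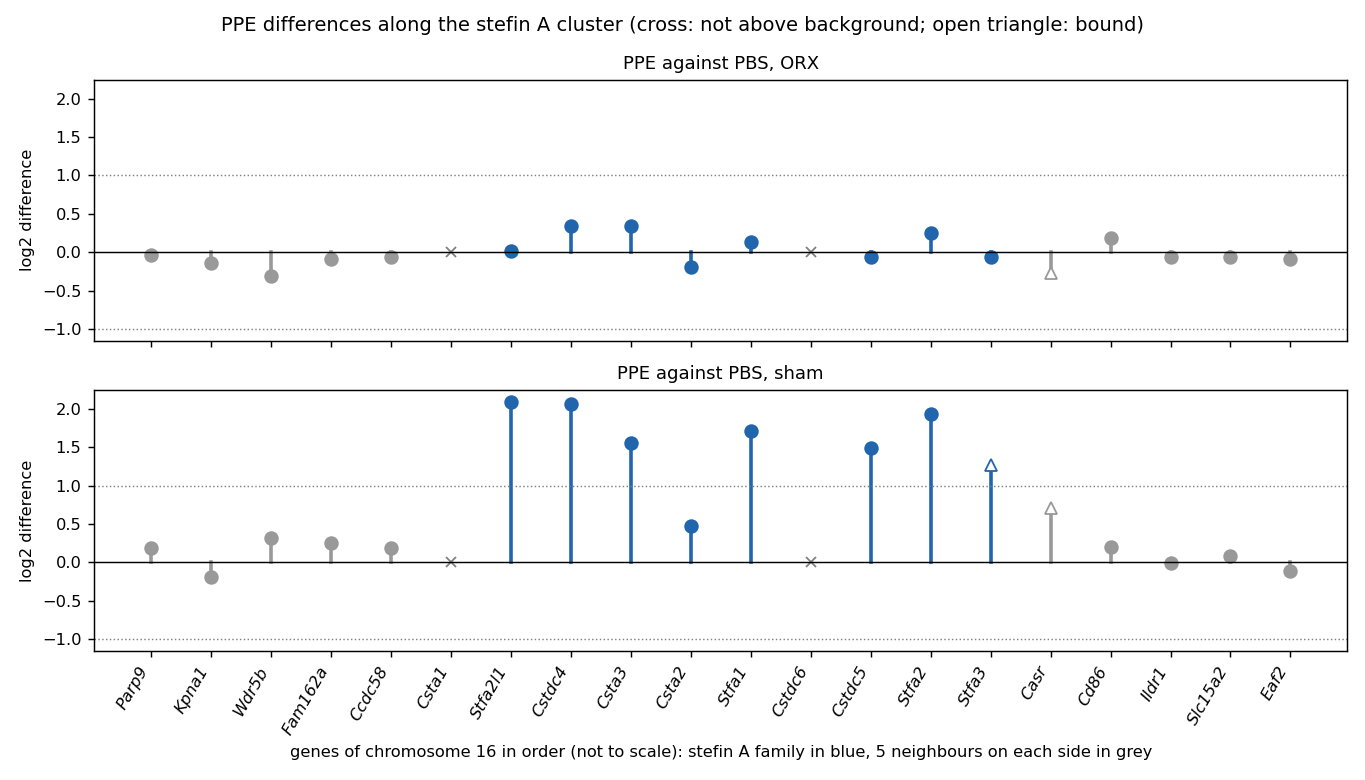
Log2 PPE differences (y axis) of the 10 family genes (blue) and 5 neighbours on each side (grey) in their order on chromosome 16 (x axis, not to scale), in ORX mice above and sham mice below. In sham mice 7 family genes pass the dotted 2-fold line and 0 of 10 neighbours do; in ORX mice 0 genes of either kind do; crosses are genes not above background on either array and open triangles are bounds.

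The proteases that stefins inhibit were read next. Of 10 cysteine cathepsins, all above background on every array, 1 passed 2-fold upward with PPE in sham mice and 0 downward, with a median of 0.36. That gene was Ctss, a cathepsin of macrophages and other antigen-presenting cells, at 1.03, and it stood at 0.56 in ORX mice. Ctsk, which cuts elastin and collagen, stood at 0.82 in sham and 0.94 in ORX mice. Ctsb and Ctsl, both inhibited by stefin A, stood at 0.12 and 0.23 in sham mice and at 0.13 and 0.02 in ORX mice. In ORX mice 0 of 10 passed 2-fold, with a median of 0.11. The cathepsin medians were 0.35 for ORX under PBS and 0.09 for ORX under PPE, so the family's negative sign under PPE was not seen in the cathepsin median.

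Of 16 cystatins outside the cluster, 15 were measured under PPE in sham mice, 4 passed 2-fold upward and 0 downward, and the median of the 13 on both arrays was 0.41. The 4 were Ahsg at 2.27 and Kng1 at 1.25, both plasma proteins made in liver, and Cst9 at 1.85 and Cst13 at 1.33, cystatins known from the male reproductive tract. These 4 stand beside the liver and spermatid transcripts on the same array, where the liver list had a median of 1.07. The cystatin list was not uniform, with Hrg at -0.48, Cst8 at -0.37, Fetub at -0.20 and Cst11 at 0.14 in sham mice. The part of other-organ transcripts in these differences was not tested. The ubiquitous stefin B gene, Cstb, was at 0.41 in sham mice, 0.02 in ORX mice, 0.19 for ORX under PBS and -0.20 for ORX under PPE. Cst3, the secreted cystatin C, was at 0.55 and Cst7, the cystatin of cytotoxic and myeloid cells, at 0.44 in sham mice. In ORX mice 0 of 12 measured cystatins were higher and 1 lower, Cst13 at -1.03, with a median of -0.08. For ORX under PBS 1 of 13 was higher and 0 lower, and for ORX under PPE 0 of 15 were higher and 6 lower, with a median of -0.74.

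Of 15 inhibitors of other leukocyte proteases, 14 were measured and 2 passed 2-fold upward with PPE in sham mice, with 0 downward and a median of 0.27. They were the whey acidic protein family genes Wfdc21 at 1.66 and Wfdc17 at 1.20. In ORX mice Wfdc21 was also at least 2-fold higher, at 1.06, with a list median of 0.04. Slpi, the secreted inhibitor of neutrophil elastase, was at 0.64 in sham mice and -0.13 in ORX mice.

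**Figure D4:**
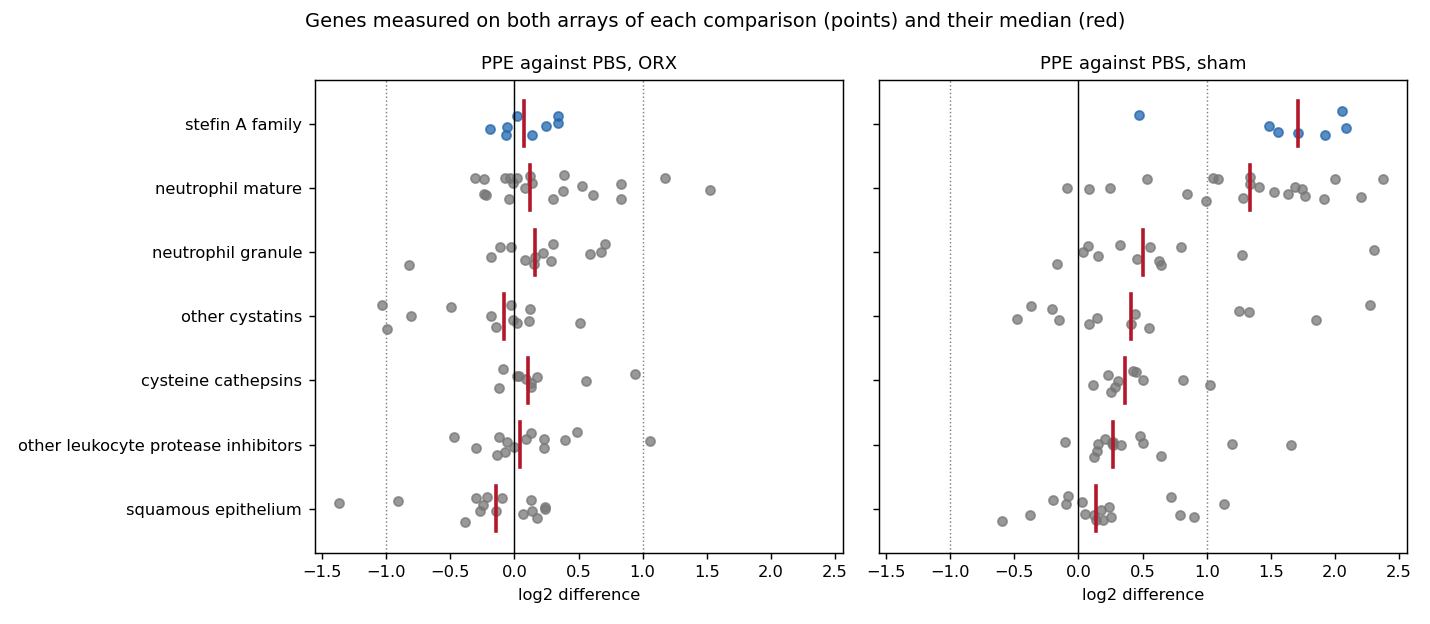
Log2 PPE differences (x axis) of the genes measured on both arrays, as points, and their median, as a red bar, for the family and 6 other lists (y axis), in ORX mice at left and sham mice at right. The family median was 0.08 in ORX and 1.71 in sham mice, that of mature neutrophil genes 0.13 and 1.34, and those of the other lists lay between -0.15 and 0.16 in ORX and between 0.13 and 0.51 in sham mice.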

How the data were processed

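The deposited scanner files of 4 arrays hold linear intensity values per spot, background-subtracted by Agilent Feature Extraction 10.7.1.1 and not normalized between arrays, per the file headers, while the submitters' processing notes name 9.5.1.1. RNA was taken with TRIzol and a column kit and labelled with Cy3, per the labels' protocols. Control and outlier spots were left out (31 to 54 of 59305 per array), spots of 1 probe averaged, log2 taken and each array's 75th percentile (591.7 to 715.1 units) subtracted. The value table deposited by the authors, linear intensity whose scale is not stated, had a median of 71.5 in every column, and on the log2 scale its correlation with processed signal was at least 0.9998; it served as an alternative. Its columns had thus been brought to a common median, and its genes were not centred. Its member differences were nearly those of quantile normalization, as for Cstdc4 under PPE in sham mice (2.0956 against 2.0954). It was therefore hardly a separate alternative to that setting.

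Names were updated through a RefSeq table of GRCm38.p6 (32994 probes by accession, 10224 by symbol, 520 by synonym, 1324 by the file's name and 11543 unnamed), and a gene was represented by its brightest probe. A gene was measured where it was well above background on at least 1 array compared. With background on the other, a bound was taken against the higher of its own value and the lowest signal above background. No test was made, and a 2-fold difference was the call. Within an array, the median SD of 300 probes with 10 spots each reached 0.0363 on the log2 scale, and for those about as bright as the family's it was 0.0834 to 0.0908. The number of arrays limits the precision.

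Every gene found by the rule is named. Of the lists and of the 5 neighbours on each side all genes are counted and only some are named. Those named from a list are not always the ones that differed most. Members and lists were chosen with earlier results of these data known. Alternatives were normexp with an offset of 50 (limma 3.58.1 in R 4.3.3), quantile normalization, median centring, stricter and no filters on dim probes, the value table, a 1.5-fold threshold and probes averaged per gene. The rest ran in Python 3.11.15 (pandas 2.3.3, numpy 2.4.6, matplotlib 3.10.9), and the calls were tested on simulated data.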

Additional observations from a re-analysis of the deposited data

Results flagged for a closer look

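For 7 members the difference of ORX from sham was positive under PBS and negative under PPE, so the PPE difference in ORX minus that in sham was negative: -2.07 for Stfa2l1, -1.72 for Cstdc4, -1.68 for Stfa2, -1.57 for Stfa1, -1.54 for Cstdc5, -1.21 for Csta3 and -0.66 for Csta2. With normexp background correction the ORX difference of Csta3 under PBS was -0.02, so for Csta3 the turn of sign did not hold there. Each value uses all 4 arrays once, and the difference between the surgeries was not tested. The sham/PPE array, which enters each of them, also held the other-organ transcripts, whose part was not tested.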

How the results depend on the processing

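Background correction by normexp lowered the stefin differences. Under it, 4 members instead of 7 were at least 2-fold higher for PPE in sham mice, with a median of 1.25, and 0 instead of 2 for ORX under PBS, with a median of 0.50. Its added offset of 50 compresses dim probes by construction, and Stfa1, Csta3 and Stfa3 were the ones no longer past 2-fold, at 0.97, 0.58 and 0.49. With a 1.5-fold threshold, 5 members were higher for ORX under PBS and 7 lower for ORX under PPE. The shares over all measured genes at that threshold were 4.04% higher for ORX under PBS and 4.9% lower for ORX under PPE. The other member counts stayed within 1.5 times, and the other medians within the scanner error, under every setting run. The 9 member differences that passed 2-fold kept their direction in all 62 values under the alternatives. Those values are not 62 separate checks. With 1 probe per member, averaging probes changes nothing, and the stricter filter only drops Stfa3. Median centring shifts every gene of a comparison alike, and the value table nearly repeats quantile normalization. Among differences under 2-fold, normexp turned the sign of Csta3 for ORX under PBS, -0.02 against 0.51, and of Stfa3 for PPE in ORX mice, 0.15 against -0.06; the cause was not tested. The bound of Stfa3 for ORX under PBS, 0.34 in the main setting, was 0 with normexp and gives no direction there. Other single-member differences kept their sign. Over all genes, PPE in sham mice gave 266 higher and 72 lower genes, against 64 and 9 under normexp, 166 and 42 when only probes above background on all arrays were used, 1185 and 712 with no filter, and 1104 and 710 at 1.5-fold. PPE in ORX mice gave 136 higher and 77 lower, against 17 and 10 under normexp, 70 and 49 on all arrays, 847 and 810 with no filter, and 666 and 515 at 1.5-fold. ORX under PBS gave 124 and 235, against 30 and 59, 86 and 152, 824 and 984, and 827 and 1044 in the same order of settings. ORX under PPE gave 57 and 293, against 4 and 91, 38 and 202, 646 and 1270, and 433 and 984. No paired analysis was possible because each group is 1 array of pooled RNA, and no replicate could be left out. A scanner error near 10% per spot limits what 1 array can resolve, and dim probes such as Csta3 and Stfa3 are less precise.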

Other observations

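None of the 5 probes set aside on chromosome 2 had the order of the stefins, with sham/PPE highest and sham/PBS lowest. The brighter probe of Cstad was at 55.2% of the 75th percentile on ORX/PPE, 49.8% on ORX/PBS, 50.5% on sham/PPE and 51.9% on sham/PBS. Its dimmer probe was at 4.06% on ORX/PPE, 2.61% on ORX/PBS, 2.81% on sham/PPE and 3.02% on sham/PBS. Cstdc2 was at 144.4% on ORX/PPE, 192.1% on ORX/PBS, 228.7% on sham/PPE and 206.9% on sham/PBS. Like the stefins, Cstdc2 was highest on sham/PPE, and its difference for ORX under PPE, -0.66, lay inside their range. The brighter probe of Cstdc1 was dim, at 2.38% on ORX/PBS, 1.89% on sham/PPE and 2.30% on sham/PBS, and not well above background on ORX/PPE. The other was so on no array. A list of 8 B cell genes had a median of 0.71 for ORX under PBS, with 2 genes at least 2-fold higher, and of 0.58 for PPE in sham mice, with 1. Its summed level was 3198 on ORX/PPE, 2977 on ORX/PBS, 2334 on sham/PPE and 1507 on sham/PBS, so sham/PBS was lowest here as for the stefins, while sham/PPE was not the highest.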
